A study of Mus musculus with 16 samples.

Results

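Proprioceptive sensory neurons (pSN) of mouse dorsal root ganglia (DRG) at embryonic day e15.5 were compared between 2 sets of libraries, S6 to S10 with abundant Hoxc10 RNA and S1 to S5 with little. The sets were chosen by their Hoxc10 level, so that level describes how they were made and is not a result. A well was kept as a proprioceptor when it held at least 10000 UMIs (unique molecular identifiers, counted once per captured RNA molecule), a mitochondrial share under 10%, at least 1 UMI each of Pvalb, Runx3, Etv1 and Ntrk3, at least 300 CPM (a count scaled to a total of 1000000) of Etv1, under 200 CPM of the glial genes Apoe and Fabp7 together, and under 500 CPM of the collagen genes Col1a1 and Col1a2 together. Of 960 wells, 259 met these limits, 87 in S1 to S5 and 172 in S6 to S10.

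The study asked which molecules set apart pSN that innervate back, abdominal and hindlimb muscles. All 10 libraries hold 96 wells each from embryos of the PvtdTom strain, in which the parvalbumin promoter drives tdTomato, and the labels give every library the same strain, tissue and age. Single tdTomato+ cells were sorted by fluorescence into wells and sequenced with CEL-Seq2, which counts RNA at its 3′ end. Thoracic and lumbar ganglia were dissected separately in the study, but the labels do not say which level a library holds, and level is therefore not assigned here. The library number and the set cannot be told apart, so anything that followed the order of the libraries, such as a day of sorting, would appear in every comparison below. The labels do not give the embryos behind a library, and p-values measure the spread between libraries, which may be technical.

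Proprioceptors carry information from muscle spindles and Golgi tendon organs to the spinal cord. In the study's scheme, those of thoracic ganglia innervate back and abdominal muscles, and those of lumbar ganglia lower back and hindlimb muscles. Hox genes encode homeodomain transcription factors that lie in 4 clusters (Hoxa, Hoxb, Hoxc and Hoxd). Along the trunk they are switched on in the order of their position in the cluster, so that genes with low paralog numbers reach furthest towards the head and genes with high numbers mark the lumbar, sacral and tail regions. In spinal motor neurons, Hox6, Hox9 and Hox10 genes are known for marking brachial, thoracic and lumbar segments.

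The kept wells of a library numbered 22, 15, 6, 6 and 38 in S1 to S5 and 8, 20, 34, 47 and 63 in S6 to S10. They summed to between 1054175 and 7095479 UMIs per library, and the median UMIs per well of a library ranged from 104440 to 174183 in S1 to S5 and from 109396 to 154386 in S6 to S10. The nearest wells inside and outside the limits had 12196 and 7322 UMIs, mitochondrial shares of 9.40% and 10.6%, 875.5 and 216 CPM of Etv1, 139 and 218 CPM of Apoe and Fabp7, and 454 and 514 CPM of the collagens. The 4 proprioceptor markers, which the limits used, summed to 4399 to 4884 CPM in S1 to S5 and 4299 to 4728 CPM in S6 to S10. Summed markers of glia, connective tissue, nociceptors, mechanoreceptors, cycling cells, blood, muscle and endothelium overlapped between the sets in each of these 8 lists. Connective tissue markers summed to 94.2 to 251 CPM in S1 to S5 and 22.8 to 317 CPM in S6 to S10, with the highest sum in S6, and blood markers to 7.50 to 94.9 CPM and 8.03 to 127 CPM. The share of wells from female embryos, called from Xist against Y-linked genes, ran from 33.3% to 76.3% in S1 to S5 and from 30% to 88.9% in S6 to S10.

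Hoxc10, a gene of the lumbar part of the Hox code, measured 55.3, 1.98, 37.9, 3.75 and 17.2 CPM in S1 to S5. In S6 to S10 it measured 137, 128, 143, 115 and 155 CPM. At least 1 Hoxc10 UMI was found in 45.5%, 20%, 33.3%, 16.7% and 36.8% of the wells of S1 to S5, and in 100%, 90%, 94.1%, 95.7% and 98.4% of those of S6 to S10. The low set was not uniform. In S1 to S5, 10 wells held 50 CPM of Hoxc10 or more, of which 5 were in S1, 1 in S3 and 4 in S5. Together these wells had 21.4 CPM of Hoxa10 and 217 CPM of Hoxc8, whereas the 57 wells of S1 to S5 without a Hoxc10 UMI had 0.251 CPM of Hoxa10 and 458 CPM of Hoxc8. The 10 wells thus lay nearer to S6 to S10 in these genes, which is a description of wells picked by Hoxc10 and was not tested. In S6 to S10, 7 wells lacked a Hoxc10 UMI, and their median depth was 28113 UMIs.

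**Figure D1:**
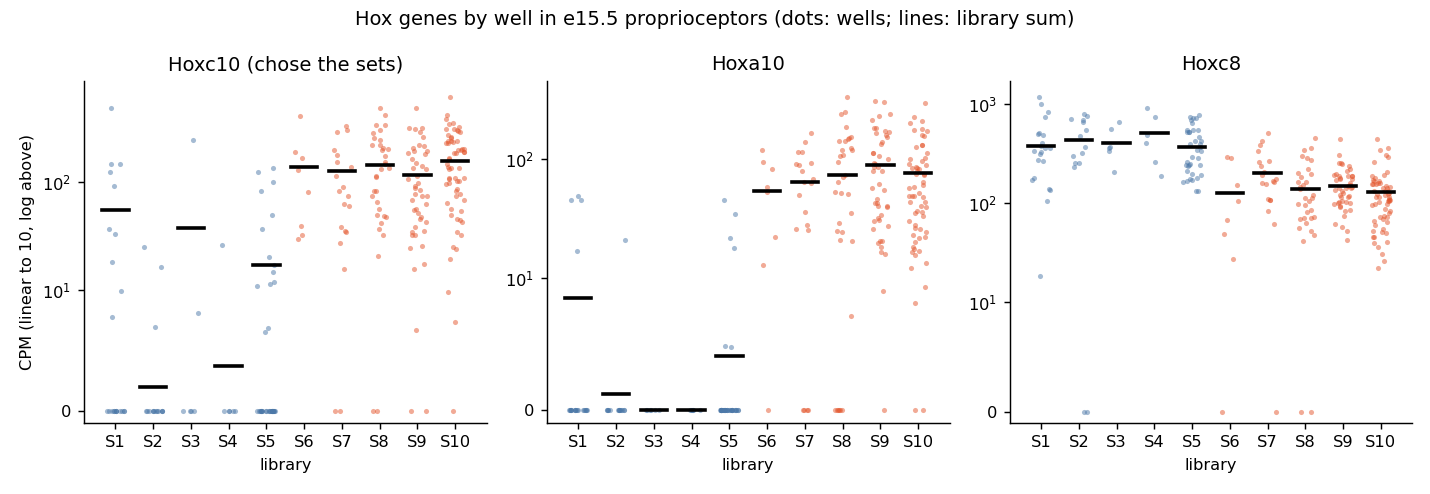
Hoxc10, Hoxa10 and Hoxc8 in CPM (linear up to 10, logarithmic above) for each of the 259 wells (dots) and for the summed wells of each library (lines), with S1 to S5 in blue and S6 to S10 in orange. Hoxc10 chose the sets; Hoxa10 lies between 0 and 8.47 CPM in the blue libraries and between 53.9 and 88.0 CPM in the orange ones, and Hoxc8 is higher in the blue libraries.

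UMIs were summed over the wells of each library and the 5 libraries of each set were compared with the quasi-likelihood F test of edgeR, and p-values were adjusted over all genes by the method of Benjamini and Hochberg. Of 12107 genes tested, 333 were called at an adjusted p below 0.05, which is 2.75% of those tested. S6 to S10 were higher for 198 of them (1.64%) and lower for 135 (1.12%). The called differences passed 2-fold for 77 higher and 42 lower genes. The CPM ranges of the sets did not overlap for 505 genes (4.17%), 268 of which were called. A sum over wells cannot tell fewer cells with a transcript from less RNA per cell. Thinning every well to 10000 UMIs left 4505 genes to test and 42 calls. There were 341 calls without S6, the library of S6 to S10 with the fewest wells, and 239 without S1, the library of S1 to S5 with the most Hoxc10.

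Hox genes other than Hoxc10 differed between the sets in both directions. Of 39 Hox genes, 20 passed the filter on low counts, and 8 were called, 5 higher (Hoxa9, Hoxa10, Hoxb2, Hoxb7 and Hoxb9) and 3 lower (Hoxc6, Hoxc8 and Hoxc9) in S6 to S10. The share called was 40% of the Hox genes tested against 2.75% of all genes, and their median log2 fold change was 0.64 against -0.01 over all genes. Among called genes, those of Hoxa and Hoxb were all higher, those of Hoxc were all lower, and neither of the 2 tested Hoxd genes was called. Hoxc as a cluster did not go 1 way. Hoxc10, higher in S6 to S10 by the choice of the sets, was not tested. Of the Hoxc genes too low to test, Hoxc11 averaged 0 against 5.06 CPM, Hoxc5 averaged 3.26 against 1.79 CPM, and Hoxc12 and Hoxc13 were hardly detected. The total over all Hox genes other than Hoxc10 was 922 to 1218 CPM in S1 to S5 and 842 to 1024 CPM in S6 to S10, so that the sets overlapped in this total.

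Hoxa10, the Hoxa paralog of Hoxc10, measured 8.47, 1.19, 0, 0 and 4.10 CPM in S1 to S5 and 53.9, 63.8, 73.1, 88.0 and 76.5 CPM in S6 to S10. Every library of S6 to S10 lay above every library of S1 to S5. S1, with the most Hoxc10 in its set, was also the highest of its set in Hoxa10. S3, next in Hoxc10 at 37.9 CPM, had 0 CPM of Hoxa10. The log2 fold change was 4.38 ± 0.36 (SE), with an adjusted p of 3.7e-05 (edgeR). Hoxa9, next to it in the cluster, measured 55.7, 38.4, 39.8, 70.3 and 53.3 CPM against 88.5, 136, 136, 152 and 131 CPM, without overlap, and was 1.36 ± 0.17 higher on the log2 scale (adjusted p = 0.00092). The other tested Hoxa genes (Hoxa3, Hoxa4, Hoxa5 and Hoxa7) were not called.

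In the Hoxb cluster, Hoxb9 measured 16.9, 5.93, 1.90, 15 and 5.61 CPM in S1 to S5 and 59.5, 21.7, 23.2, 33.2 and 24.1 CPM in S6 to S10. The sets did not overlap, and the log2 fold change was 1.80 ± 0.38 (adjusted p = 0.018), a call that was lost without S2 or without S5. Hoxb7 measured 16.1 to 30.6 CPM against 38.0 to 47.5 CPM and differed by 0.91 ± 0.15 (adjusted p = 0.0041). With stricter glial and collagen limits neither Hoxb7 nor Hoxb9 was called (adjusted p = 0.0780 and 0.0862). Hoxb2, whose locus overlaps an antisense RNA, had 0.949 to 5.62 CPM against 4.02 to 10.3 CPM, so the sets overlapped, and its call (1.55 ± 0.35, adjusted p = 0.028) was lost without any of S1, S2, S3, S5, S9 or S10.

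The Hoxc genes on the 3′ side of Hoxc10 went the other way. Hoxc8, a gene of the thoracic part of the code, measured 378, 435, 408, 515 and 369 CPM in S1 to S5 and 125, 201, 137, 148 and 128 CPM in S6 to S10. The lowest library of S1 to S5 was above the highest of S6 to S10, with a log2 fold change of -1.50 ± 0.13 and an adjusted p of 5.3e-05. Hoxc9 measured 165, 185, 208, 167 and 171 CPM against 70.0, 122, 106, 105 and 92.3 CPM, again without overlap (-0.82 ± 0.12, adjusted p = 0.0027). Hoxc6 was at 50.3 to 81.9 CPM against 36.2 to 50.1 CPM (-0.52 ± 0.13, adjusted p = 0.049), and this call was kept without S3 and without S4 but not without any of the other 8 libraries. Hoxc4 measured 26.5 to 33.4 CPM against 17.7 to 26.0 CPM, also without overlap, and was not called. Hoxc6, Hoxc8 and Hoxc9 lie within the annotated span of Hoxc5 on the same strand, and reads could have been split between them.

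**Figure D2:**
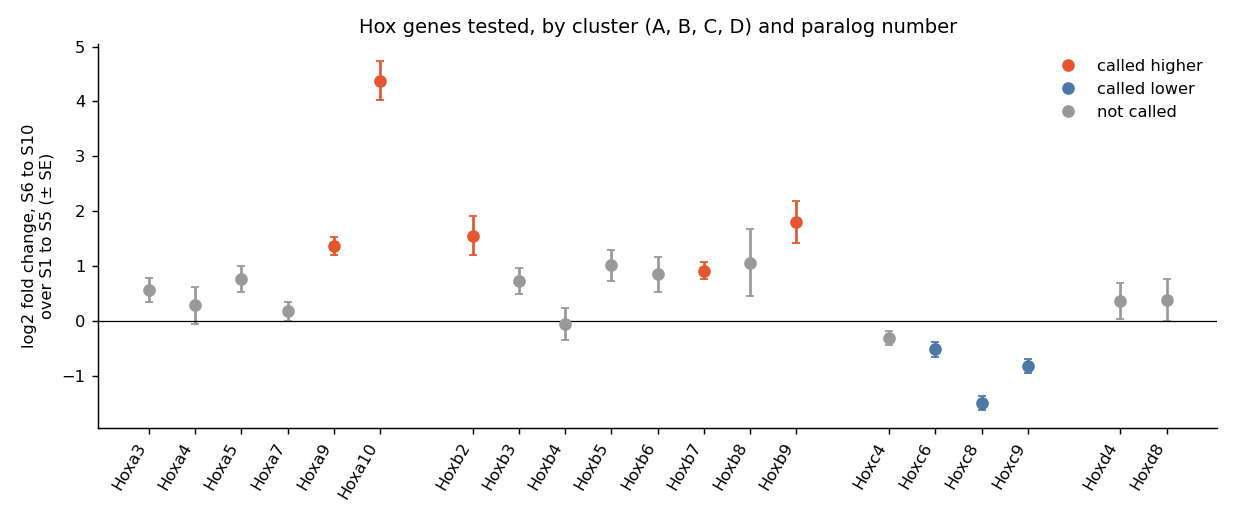
Log2 fold change of S6 to S10 over S1 to S5 with its standard error (edgeR, 5 libraries a set) for the 20 Hox genes tested, ordered by cluster and paralog number, with called genes in colour. Hoxa10 stands highest at 4.38, all called Hoxa and Hoxb genes are above 0 and all called Hoxc genes are below 0.

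Among the highest paralog numbers most genes were too low to test. Hoxd9 had 20 UMIs in S1 to S5 and 208 in S6 to S10, and Hoxd10 had 1 and 54. Hoxc11 had 0 UMIs in S1 to S5 (which allows up to 0.26 CPM over the set) and 58 in S6 to S10, of which S6 held the highest level, 19.3 CPM against 0.454 to 3.10 CPM in S7 to S10. Hoxa11 had 0 and 8 UMIs, and Hoxa13, Hoxb13, Hoxd12 and Hoxd13 had none in either set. Summed over paralogs 10 to 13 without Hoxc10, the level was 0 to 8.92 CPM in S1 to S5. It was 65.5 to 98.6 CPM in S6 to S10, most of it Hoxa10. Over paralogs 6 to 8 the sums were 579 to 808 CPM and 383 to 505 CPM. Hoxc8 alone made up 369 to 515 CPM and 125 to 201 CPM of these sums. Of the 7 genes tested among paralogs 6 to 8, 1 was called higher and 2 lower, with a median log2 fold change of 0.38. Hox proteins bind DNA with Pbx, Meis and Pknox partners. Of 8 such cofactor genes tested, 1 (12.5%, against 2.75% of all genes) was called, Meis2, at 425 to 634 CPM against 321 to 446 CPM (-0.51 ± 0.10, adjusted p = 0.011), and the sets overlapped.

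The wells rich in collagen RNA, which the limits left out, allowed the Hox genes to be read in other wells of the same libraries. There were 245 such wells in S1 to S5 and 211 in S6 to S10, of which S9 and S10 held 6 and 5. Neurons were not excluded from them, and 8 of them met every proprioceptor limit other than that on collagen. Their Pvalb level was 15.6 to 74.8 CPM in S1 to S5 and 16.7 to 106 CPM in S6 to S10. Hoxc10 was at 7.65 to 12.7 CPM in the collagen wells of S1 to S5. In those of S6 to S10 it was at 96.7 to 181 CPM. The sets were thus apart in wells that took no part in choosing them. Hoxc8 was lower in S6 to S10 there too (112 to 221 CPM against 55.8 to 87.0 CPM). Hoxc9 went the other way, at 31.7 to 60.4 CPM in the collagen wells of S1 to S5 and 77.4 to 125.5 CPM in those of S6 to S10. Hoxb7 was also opposite, at 41.9 to 57.5 CPM against 13.9 to 38.7 CPM in collagen wells. The difference between the sets on the log2(CPM + 1) scale was 1.88 lower in proprioceptor wells than in collagen wells for Hoxc9 and 2.01 higher for Hoxb7, each with a two-sided exact permutation p of 0.00794 over 5 against 5 libraries, the smallest that design allows. These are 2 of 12 Hox genes compared in this way, 6 of which reached that p (the others were Hoxa7, Hoxa9, Hoxb3 and Hoxb9). Hoxc9 and Hoxb7 were picked for opposite directions with ranges apart in both kinds of wells, which by itself fixes their p at that value. For Hoxc8 the difference was -0.24, with an exact p of 0.452. The comparison was added after the values were seen, and the makeup of the collagen wells in the 2 sets was not tested.

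**Figure D3:**
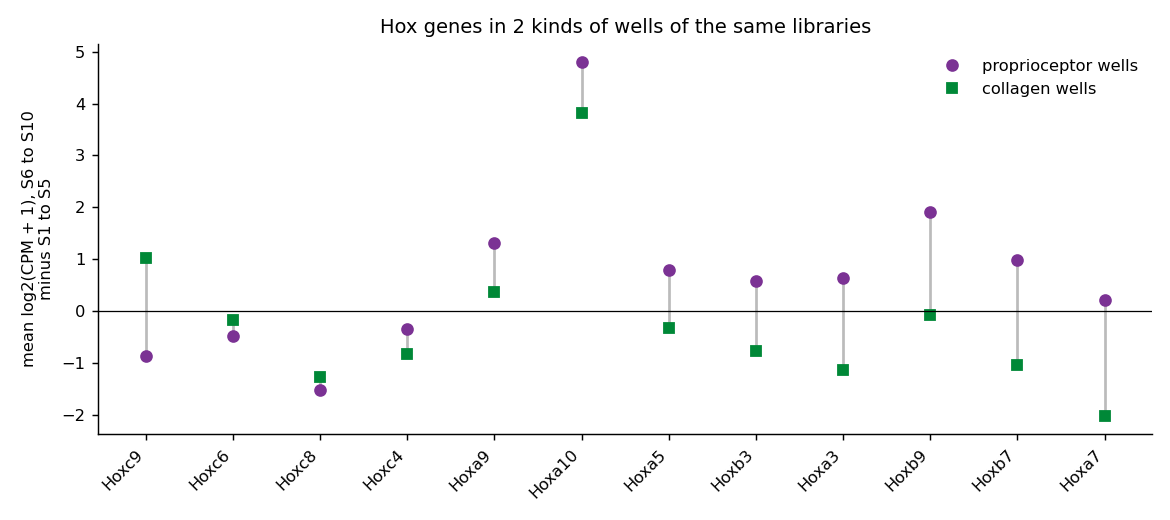
Mean log2(CPM + 1) over the libraries of S6 to S10 minus that over S1 to S5, for 12 Hox genes in proprioceptor wells (circles) and collagen wells (squares) of the same libraries. The 2 kinds of wells lie on opposite sides of 0 for 7 genes, among them Hoxc9 and Hoxb7, and close together for Hoxc8.

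The miR-196 microRNAs are shown because they lie inside the same clusters and Hoxc8 RNA is a known target of this family. Mir196b lies within the annotated span of Hoxa9 (chr6:52230129-52230150, minus strand), Mir196a-1 in the Hoxb cluster (chr11:96265187-96265208, plus strand) and Mir196a-2 between Hoxc10 and Hoxc9 (chr15:102973365-102973386, plus strand). The mature sequences (RefSeq, GRCm38.p6) follow with the seed, bases 2 to 8, in capitals. All share 1 seed.
mmu-miR-196a-5p: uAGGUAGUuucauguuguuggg
mmu-miR-196b-5p: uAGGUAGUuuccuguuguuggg
The 3′ UTR of Hoxc8 (GENCODE transcript) held 2 seed matches, shown with the match in capitals, at chr15:102992975-102992996 and chr15:102993732-102993753 on the plus strand.
Hoxc8 first match: acactcacaactctaACTACCT
Hoxc8 second match: ataaatctttaacatACTACCT
Of 39 Hox genes searched, 8 held a match (Hoxa4, Hoxa5, Hoxa7, Hoxa9, Hoxb1, Hoxb6, Hoxb7 and Hoxc8), and of 10550 genes tested with a 3′ UTR, 7.44% did. Genes with a match were found among those higher (Hoxa9, Hoxb7), lower (Hoxc8) and not called (Hoxa7, with 4 matches) in S6 to S10. Mature microRNAs were not measured by this assay, and a match of letters is a description only.

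Outside the Hox clusters, the largest difference was that of Pde1c, a calcium- and calmodulin-dependent phosphodiesterase. It measured 1.78, 0.396, 0, 0 and 0.216 CPM in S1 to S5 and 51.5, 19.2, 19.3, 8.80 and 24.7 CPM in S6 to S10. Nearly all of its UMIs came from S6 to S10 (414 against 6), and the log2 fold change was 5.34 ± 0.64 (adjusted p = 0.00078). Gabrg1, the gamma-1 subunit of the GABA-A receptor and a gene the study uses for hindlimb pSN, measured 4.01, 0, 0.949, 0 and 1.51 CPM against 8.04, 43.0, 50.9, 46.0 and 14.8 CPM. The sets did not overlap, S6 and S10 were the lowest of the high set, and the log2 fold change was 4.50 ± 0.63 (adjusted p = 0.0019).

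Among the 12 largest higher genes, Igf1, insulin-like growth factor 1, measured 40.1, 30.9, 18, 39.4 and 44.4 CPM in S1 to S5 and 259, 179, 109, 164 and 217 CPM in S6 to S10 (log2 fold change 2.36 ± 0.22, adjusted p = 7.3e-05). The sets did not overlap. Igf1 was highest in S6, which had the highest connective tissue marker sum (317 CPM), and second highest in S10, which had the lowest (22.8 CPM), and the part of such RNA in these values was not tested. Fgf1, a fibroblast growth factor without a classical secretion signal, measured 13.4, 10.3, 6.64, 5.62 and 6.90 CPM against 85.2, 21.7, 30.7, 47.4 and 43.8 CPM (2.31 ± 0.33, adjusted p = 0.0021). Fam19a4, a small secreted chemokine-like protein, was at 0 to 23.3 CPM against 49.5 to 106 CPM, and Bmper, a secreted BMP-binding protein, at 0.937 to 20.9 CPM against 25 to 57.9 CPM. Casz1, a zinc finger transcription factor, measured 56.2, 29.7, 15.2, 1.87 and 21.6 CPM against 281, 97.7, 119, 147 and 127 CPM (2.47 ± 0.38, adjusted p = 0.0031), with S6 well above the rest of its set. The other genes of the 12 were Klhl5, the IgLON adhesion gene Opcml (0 to 38.8 against 60.1 to 139 CPM, not called by DESeq2), the galanin receptor Galr1, the heparan sulfate sulfotransferase Hs3st6 and the AMPA receptor auxiliary subunit Cnih3. All 12 had sets that did not overlap, as the rule for naming them required, and all but Galr1 remained called without any library in turn.

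Among the 12 largest lower genes, Pappa, a secreted protease that cleaves insulin-like growth factor binding proteins, measured 44.6, 40.8, 18, 49.7 and 34.1 CPM in S1 to S5 and 0.804, 11.3, 12.3, 10.2 and 13 CPM in S6 to S10 (-1.81 ± 0.29, adjusted p = 0.0037). The sets did not overlap, and S6 was far below the other libraries. Clu, the secreted chaperone clusterin, measured 452, 283, 262, 399 and 373 CPM against 26.5, 172, 91.1, 111 and 151 CPM (-1.62 ± 0.30, adjusted p = 0.0074). Fstl5, a secreted follistatin-like protein, had the smallest standard error of the 12 at 182 to 239 CPM against 43.4 to 97.5 CPM (-1.43 ± 0.16, adjusted p = 0.00049). Adamts5, which cuts the proteoglycan aggrecan, was at 76.9 to 102 CPM against 0.804 to 55.6 CPM, but its call (-1.43 ± 0.34, adjusted p = 0.036) was kept only without S4, S6 or S9. Glra2, the alpha-2 subunit of the glycine receptor (13.4 to 20.6 against 4.77 to 8.85 CPM), and Dlgap2, a postsynaptic scaffold protein (8.44 to 18.6 against 2.41 to 5.43 CPM), were low in both sets but without overlap. The rest were the orphan receptor Gpr149, the lactate transporter Slc16a3, the actin-binding protein Svil, Tmem132d, the phosphatase Ptpn22 and Epha7.

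**Figure D4:**
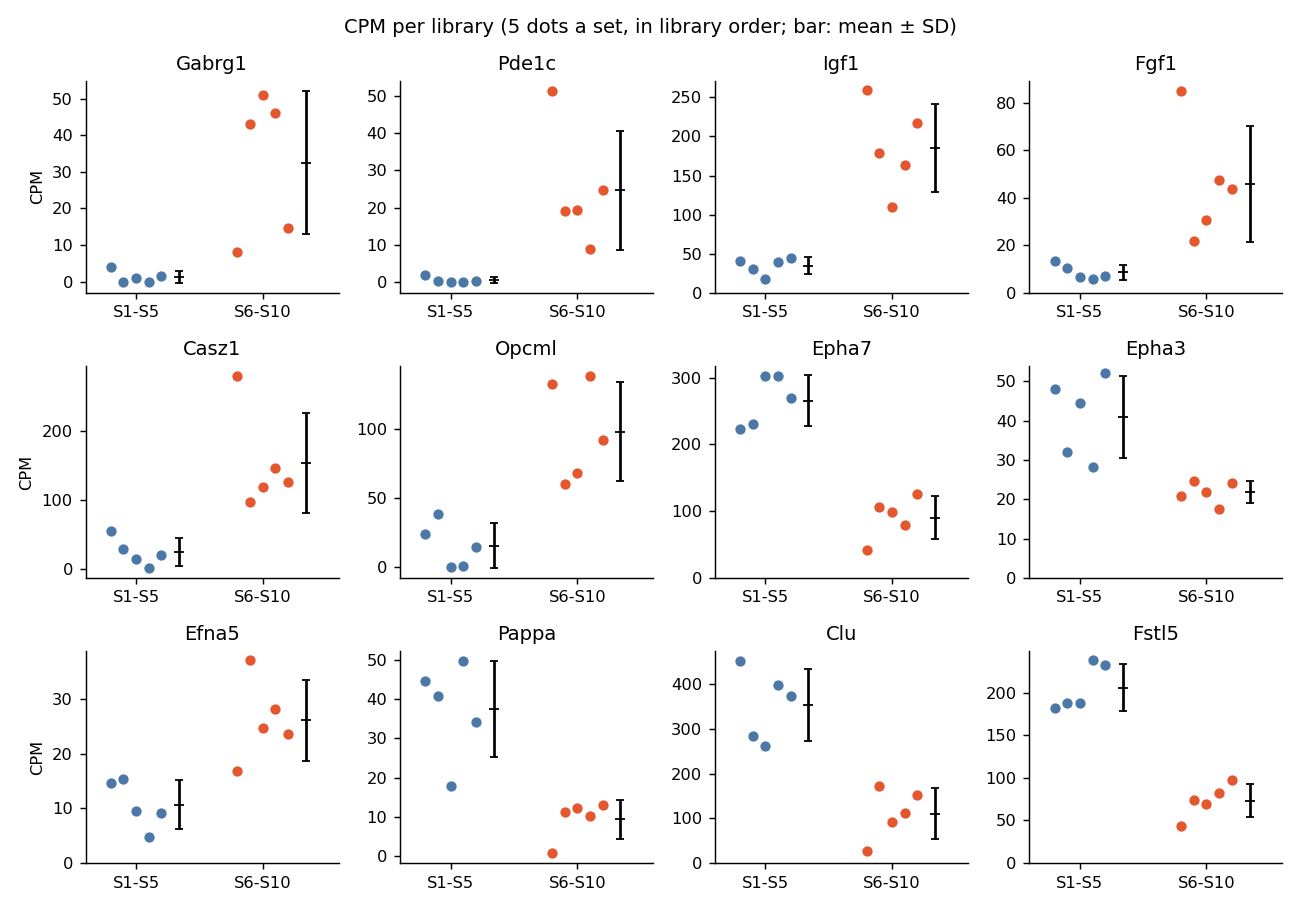
CPM in each library (dots, 5 a set in library order) with mean ± SD (bars) for 12 named genes, S1 to S5 in blue and S6 to S10 in orange. Gabrg1, Pde1c, Igf1, Fgf1, Casz1, Opcml and Efna5 are higher in S6 to S10, and Epha7, Epha3, Pappa, Clu and Fstl5 are lower. S6 is the highest or the lowest library of its set for every gene drawn except Opcml and Epha3.

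Eph receptors bind ephrins on neighbouring cells and steer growing axons by repulsion and adhesion. Epha7 measured 222, 230, 303, 303 and 270 CPM in S1 to S5 and 41.8, 106, 97.9, 79.8 and 126 CPM in S6 to S10 (-1.49 ± 0.20, adjusted p = 0.0014), and Epha3 measured 48.1, 32.0, 44.6, 28.1 and 52.2 CPM against 20.9, 24.6, 21.8, 17.6 and 24.1 CPM (-0.93 ± 0.17, adjusted p = 0.0071). In both genes all libraries of S1 to S5 lay above all of S6 to S10, and both stayed called without any library in turn. These were 2 of 6 EphA receptors tested (33.3%, against 2.75% of all genes). The study had reported Epha3, Epha4, Epha5 and Epha7 as differing between clusters of cells from these libraries. That share is therefore not independent evidence. Epha5 had a log2 fold change of -0.79 ± 0.33 and Epha4 of -0.0024 ± 0.23, neither called (adjusted p = 0.268 and 0.999). Summed over the 9 EphA receptors, the level was 370 to 487 CPM in S1 to S5 and 169 to 245 CPM in S6 to S10. Epha7 alone made up 222 to 303 CPM and 41.8 to 126 CPM of this, and the sum was not tested.

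The ephrin-A ligands went the opposite way in their sum, at 109 to 163 CPM in S1 to S5 and 173 to 213 CPM in S6 to S10, and again did not overlap. This sum was not tested either, and most of it was Efna3, at 76.9 to 113 CPM and 107 to 135 CPM. Efna3 overlapped between the sets and was not called (adjusted p = 0.272, edgeR). Efna5 alone of 3 tested ligands was called (33.3%, against 2.75% of all genes). The study had also reported Efna5 in cells of these libraries, so that share is not independent evidence either. Efna5 measured 14.7, 15.4, 9.49, 4.69 and 9.05 CPM against 16.9, 37.1, 24.8, 28.2 and 23.5 CPM (1.25 ± 0.25, adjusted p = 0.012, edgeR). The gap between the sets was narrow, between 15.4 CPM in S2 and 16.9 CPM in S6. The call was lost without S5 and with no limit on Etv1 beyond 1 UMI (adjusted p = 0.244). Of 6 EphB receptors and ephrin-B ligands tested, none was called, with log2 fold changes from -0.10 to 0.51.

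The promoter bases upstream of Gabrg1 and Epha7 are shown as the regulatory sequence of a receptor gene higher and of one lower in S6 to S10. RefSeq (GRCm38.p6) gives them as the 250 bases before the transcription start, at chr5:70842618-70842867 on the minus strand for Gabrg1 and chr4:28812881-28813130 on the plus strand for Epha7, which has 2 starts in the table. Capitals mark TTTAT and TTTAC on either strand, short cores of the sites that Hox9 to Hox13 proteins prefer. On the other strand TTTAT reads ATAAA, letters that a TATA box also contains.
Gabrg1 promoter: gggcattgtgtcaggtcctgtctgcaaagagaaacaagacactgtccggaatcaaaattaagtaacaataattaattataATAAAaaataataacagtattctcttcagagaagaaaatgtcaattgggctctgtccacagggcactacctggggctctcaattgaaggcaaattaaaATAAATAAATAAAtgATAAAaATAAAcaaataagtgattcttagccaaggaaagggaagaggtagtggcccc
Epha7 promoter: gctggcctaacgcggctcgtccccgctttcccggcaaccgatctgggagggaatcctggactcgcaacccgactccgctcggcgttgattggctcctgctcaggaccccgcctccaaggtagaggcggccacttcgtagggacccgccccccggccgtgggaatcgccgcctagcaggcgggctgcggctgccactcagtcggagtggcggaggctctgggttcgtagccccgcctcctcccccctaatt
Gabrg1 held 6 matches of TTTAT, some of them overlapping, and none of TTTAC, and Epha7 held neither. Among all 32851 promoters of the table, 37.3% held TTTAT and 28.3% held TTTAC. A match is a description of letters and not a bound site.

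The study names 7 genes for the muscle types of pSN: Tox, Epha3 and Trpv1 for back, C1ql2 for abdominal, and Gabrg1, Efna5 and Chodl for hindlimb muscles. Most were picked by the study on newborn neurons, which are not among these libraries, and Trpv1 on cells of these libraries. The study then examined them at e15.5 as well, and they were taken up here with results of these libraries known, so their directions are not independent evidence. Of 5 tested, Gabrg1 and Efna5 were called higher and Epha3 and C1ql2 lower in S6 to S10 (80% called, against 2.75% of all genes). For the same reason that share is not independent evidence. C1ql2, a secreted C1q-like protein, measured 19.2, 20.6, 0.949, 6.56 and 8.62 CPM against 0, 6.68, 1.59, 1.4 and 1.97 CPM. The sets overlapped, through S3 and S4, and the call (-2.37 ± 0.57, adjusted p = 0.037) was lost without any of S1, S2, S5, S8, S9 or S10. Tox, an HMG-box nuclear protein, measured 30.3, 26.1, 32.3, 67.5 and 56.9 CPM against 11.3, 23.8, 32.7, 30.2 and 31.6 CPM, overlapped, and was not called (-0.61 ± 0.27, adjusted p = 0.314). The channel gene Trpv1 and Chodl were too low to test, with 21 and 25 UMIs in S1 to S5 and 68 and 156 in S6 to S10.

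The same genes were counted as the share of wells with a UMI after each well was thinned to 10000 UMIs. Gabrg1 was found in 0% of the wells of all 5 libraries of S1 to S5 (0 of 87 wells, which allows up to 3.45% of wells with a UMI at this thinned depth, for counting error only) and in 12.5%, 25%, 14.7%, 19.1% and 7.94% of those of S6 to S10, a difference of 15.9 percentage points (two-sided exact permutation p = 0.00794). Collagen wells, from which neurons were not excluded, had it in 1.22% and 0.948% in the 2 sets. Without thinning, the gene had a UMI in some wells of S1 to S5 as well, and the shares were 7.26% ± 7.21 and 40.8% ± 8.39 (mean ± SD, n = 5 libraries each). Efna5 was found in 2.39% ± 3.30 and 25% ± 8.72 of thinned wells (n = 5 libraries each, exact permutation p = 0.00794), and it was also present in 72.7% and 54.0% of collagen wells, and the part of free RNA from such cells in its shares was not tested. Without thinning, the Efna5 shares of the sets overlapped, at 33.3% to 73.3% and 67.6% to 85.1%.

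For the other 5 genes the thinned shares did not pass the test. Tox was found in 25.3% ± 7.60 against 15.9% ± 10.1 of wells (n = 5 libraries each, exact permutation p = 0.135), Epha3 in 28.4% ± 12.7 against 15.8% ± 5.88 (exact p = 0.0873), C1ql2 in 6.97% ± 6.76 against 0.317% ± 0.71 (exact p = 0.167), Trpv1 in 3.33% ± 7.45 against 1.49% ± 2.07 (exact p = 1) and Chodl in 2.77% ± 2.90 against 10.8% ± 15.2 (exact p = 0.254). Chodl reached 37.5% in S6, the library with the highest connective tissue sum, where 49 of 83 collagen wells had it, and the part of those cells in that value was not tested. All 7 genes were tested, and p-values are unadjusted.

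**Figure D5:**
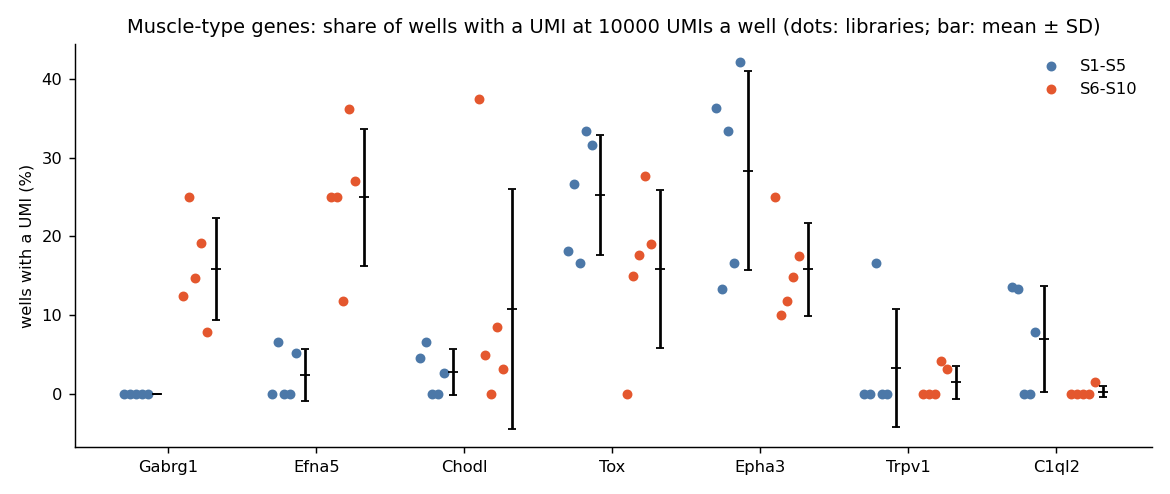
Percent of proprioceptor wells with at least 1 UMI of each of 7 muscle-type genes named by the study, after thinning each well to 10000 UMIs, per library (dots) with mean ± SD over 5 libraries (bars). Gabrg1 is at 0% throughout S1 to S5 and between 7.94% and 25% in S6 to S10, while the sets overlap for Chodl, Tox, Epha3, Trpv1 and C1ql2.

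Other gene lists held few calls in number, but the lists are short, so that 1 call moves a share by much. Calls made up 14.3% of the sensory lineage transcription factors tested, 33.3% of the neurotrophin and GDNF receptors and 28.6% of the GABA-A subunits. The share over all genes was 2.75%. Among sensory lineage transcription factors, Casz1 and Pou4f3 (25.6 to 118 against 99.7 to 145 CPM) were 2 of 14 called, both higher, and Isl1, Pou4f1, Tlx3 and Shox2 were not called. Of 6 receptors for neurotrophins and GDNF family ligands, the p75 receptor Ngfr was higher (376 to 472 against 508 to 675 CPM; 0.46 ± 0.09, adjusted p = 0.015), and the artemin coreceptor Gfra3 lower (34.7 to 74.4 against 24.1 to 34.6 CPM; -1.04 ± 0.16, adjusted p = 0.0033). The call of Ngfr was lost with libraries of at least 10 wells (adjusted p = 0.0976), with stricter glial and collagen limits (0.0800) and with thinned wells (0.313). Of 7 GABA-A receptor subunits, Gabra3 was lower (46.5 to 73.1 against 27.8 to 36.2 CPM; -0.79 ± 0.14, adjusted p = 0.006) beside the higher Gabrg1. The sum over the 15 subunits did not overlap, at 353 to 420 against 440 to 529 CPM, but only with Gabrg1 in it. S7, the lowest of S6 to S10 at 440 CPM, held 43.0 CPM of Gabrg1, and S4, the highest of S1 to S5 at 420 CPM, held 0. Without Gabrg1 the sums of the sets overlapped.

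Among adhesion and guidance genes, Cdh10 was lower (36.0 to 58.1 against 18.5 to 27.9 CPM) and Cdh7 higher (27.5 to 56.6 against 50.2 to 109 CPM) of 11 classical cadherins (18.2% called, against 2.75% of all genes). Pcdh8 and Pcdh11x were lower of 9 non-clustered protocadherins (22.2%), and Plxnd1, a semaphorin receptor, was lower of 24 semaphorins, plexins and neuropilins (1 called, 4.17%). The netrin receptor Unc5b (23.7 to 40.0 against 45.1 to 73.4 CPM) and the Slit receptor Robo2 were higher of 9 Slit, Robo and netrin genes (22.2%). The calls of Pcdh8, Pcdh11x, Plxnd1 and Unc5b were each lost under at least 1 other processing setting, Unc5b with thinned wells (adjusted p = 0.416). None of 4 candidate genes of distal hindlimb afferents (Sema5a, Crtac1, Cdh13 and Vstm2b) was called, and the limb field genes Pitx1, Tbx4, Tbx5 and their like were too low to test. Of 11 immediate early and stress genes 1 (9.09%), Jun, was lower (-0.40 ± 0.10, adjusted p = 0.036). The calls of Cdh7, Robo2, Pou4f3 and Jun were each lost without 6 or 7 of the 10 libraries, and that of Jun also with thinned wells (adjusted p = 0.455).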

How the data were processed

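The members and gene lists were chosen with earlier results of these data known. The deposited e15.5 table holds raw UMI counts per gene and well, which the authors made from CEL-Seq2 reads with the R package scruff (mouse genome mm10/GRCm38; neither annotation nor counting strand is stated). The table of newborn (p1) cells was not used. Well sums were formed per library, with library sizes of 1054175 to 7095479 UMIs, and CPM were computed from the unnormalized sums. Gene names and positions come from GENCODE M21 (GRCm38), by Ensembl ID, with 49412 of 49671 IDs named. Drgx and Ntn3 were not found under these names. The same 96 well numbers occur in every library, no wells were identical, and no doublet caller was run.

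Counts were tested with edgeR 4.0.16 (filterByExpr, TMM, glmQLFit and glmQLFTest; R 4.3.3), 5 libraries against 5, without covariates, and Hoxc10 was left out. A gene was called at an adjusted p below 0.05. Standard errors of log2 fold changes were computed as the absolute log2 fold change over the square root of the F statistic. They are thus not an estimate separate from the test. On simulated counts the fit recovered 72% of 2-fold and 97% of 4-fold changes, and 6.63% of its calls were unchanged genes. Shares of wells were compared after thinning to 10000 UMIs by exact permutation over libraries (252 splits, so no two-sided p below 0.00794), and those p-values are given unadjusted. The upper limits given with a count of 0 are 3 counts over the wells or UMIs of the set, and cover counting error only. Alternatives were DESeq2 1.42.0, limma 3.58.1 (voom with sample weights), other size factors, filters and well limits, depth or female share as covariates, and leaving out each library.

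Named genes were all Hox genes; the 12 largest log2 fold changes in each direction among called non-Hox genes with at least 10 CPM in the higher set and CPM ranges that did not overlap; the muscle-type genes of the study; and the called members of the other lists. Library correlations over 9874 genes had a median of 0.959 within and 0.95 between sets.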

Additional observations from a re-analysis of the deposited data

Results flagged for a closer look

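Of 110 groups of 5 libraries examined for a library far from the others, 4 stood out, where chance gives about 1 in 20. S6, with 8 wells, was apart for 2 genes: Casz1 at 280.7 CPM where S7 to S10 had 97.7 to 147 CPM, and Pappa at 0.804 CPM where they had 10.2 to 13 CPM. Pde1c was at 1.78 CPM in S1, from only 4 UMIs, where S2 to S5 had 0 to 0.396 CPM. Cnih3 was at 17.9 CPM in S7, where the rest of its set had 9.20 to 11.7 CPM. All of these genes stayed called without the library concerned.

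The sets differed in opposite directions in proprioceptor and in collagen wells of the same libraries for Hoxc9, with a difference of -1.88 between the kinds of wells on the log2(CPM + 1) scale, and for Hoxb7, with a difference of 2.01. In both kinds of wells the library ranges of the sets were apart for both genes. Both genes were flagged because of opposite directions and ranges apart, and this alone fixes the exact permutation p at 0.00794 (5 against 5 libraries). It also fixes the sign of the difference when a library is left out, so neither is separate support. Leaving out any library gave -2.02 to -1.75 for Hoxc9 and 1.81 to 2.24 for Hoxb7. With S9 and S10 left out, which held 6 and 5 collagen wells, the values were -1.76 and 2.18, where the smallest exact p that 3 against 5 libraries allow is 0.0357. Why the kinds of wells differ was not tested.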

How the results depend on the processing

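The 333 calls (198 higher, 135 lower) were moved by more than 1.5 times with no filter on low counts (672, with 417 higher and 255 lower), with wells thinned to 10000 UMIs (42, with 20 and 22, of 4505 genes tested), with the study's quantile filters (216, with 83 lower) and with stricter glial and collagen limits (220, with 88 lower). Leaving out each library gave 209 to 366 calls, 117 to 209 higher and 92 to 157 lower, with the fewest without S5 (209), S2 (220) and S9 (220), and 130 higher without S10. DESeq2 gave 485, limma 453, RLE factors 333, libraries of at least 10 wells 339, no Etv1 limit 297, the depth covariate 318 and the female covariate 374. No setting called a main gene in the opposite direction, 154 genes stayed called without each library in turn, and 23 under all 11 other settings. Of the log2 fold changes of named genes, none reversed, 60 of 490 with a library left out and 42 of 509 under other settings were no longer called, and Tox was called with no filter. The calls lost include Opcml with DESeq2 (adjusted p = 0.118), Unc5b with thinned wells (0.416), Pcdh11x with libraries of at least 10 wells (0.0666), Pcdh8 with these (0.0677), stricter limits (0.125) and thinned wells (0.185), Plxnd1 with thinned wells (0.0849) and stricter limits (0.0717), and, with stricter limits, Hoxb7 (0.0780), Hoxb9 (0.0862), Gpr149 (0.15) and Slc16a3 (0.143).

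The thinned share difference of Gabrg1 was 13.6 to 17.8 percentage points and that of Efna5 19.8 to 25.9 without each library in turn. Their exact permutation p was then 0.0159 each time, and 0.0556 once adjusted for 7 genes, which did not pass the threshold. With libraries of at least 10 wells the 2 differences were 16.7 and 21.0, with an exact p of 0.0571, the smallest that 4 against 3 libraries allow. With at least 2 UMIs they were 6.03 and 6.51, with an exact p of 0.0476 for each (0.167 adjusted over the 7 genes). Without thinning, Epha3 (-29.8) and C1ql2 (-25.8) passed. Without each library, the differences were -16.3 to -9.10 for Epha3, -8.40 to -4.99 for C1ql2, -12.4 to -5.45 for Tox, 1.4 to 10.8 for Chodl and -2.68 to 1.49 for Trpv1. The sign changed for 2 genes that were not called, Trpv1 (1.49 without S3, 1.86 with libraries of at least 10 wells and 0.74 with at least 2 UMIs) and Chodl (-0.443 with libraries of at least 10 wells). The depth of S3, S4 and S6, with 6 to 8 wells, limits what can be seen there. No paired analysis was possible because the labels do not give the embryos behind a library.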
